A study of Homo sapiens with 7 samples.

Results

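The 2 guides used to knock out WTAP in HEL cells were compared with each other by RNA-seq. HEL is a human erythroleukemia cell line that keeps erythroid and megakaryocyte features. Of the 7 samples in the series, the 4 with a WTAP guide were used, 2 with guide sg1 and 2 with guide sg2, and samples with the non-targeting control guide did not enter. All 4 samples share the same target gene and Cas9 delivery by a lentiviral vector, so the comparison asks which mRNAs differ between cells that carry one WTAP guide or the other. The labels of the WTAP samples name no cell line, which was taken from the study's methods, and they do not say whether the replicates of a guide came from separate transductions. P-values therefore measure the spread between these samples, which may be technical. Of 25370 gene symbols listed, 12800 had a mean of at least 1 CPM (counts scaled to the same total in every library) over the 4 samples and were tested.

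WTAP is the regulatory subunit that holds the METTL3 and METTL14 methyltransferase pair at nuclear speckles, where N6-methyladenosine (m6A) is written on nascent mRNA. A guide directs Cas9 to cut both DNA strands, and faulty repair leaves small insertions or deletions that can shift the reading frame. 2 guides to one gene share the intended loss and differ in cutting efficiency, in the alleles they leave and in the other sites they may cut. The study's guide list marks 2 WTAP guides as used singly, and neither that list nor the labels say which of them is sg1. Both are printed here as the protospacer in lower case followed by its PAM, the bases Cas9 needs beside the site, in capitals.
sgWTAP_1: cgaagaacctcttcccaagaAGG
sgWTAP_10: aagttgtgcaatacgtccctGGG

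The sgWTAP_1 protospacer lies on the plus strand at chr6:160157306-160157325 (GRCh37) in exon 2 of 8 of WTAP, in coding sequence, with 25 of 1188 coding bases (2.10%) ahead of the expected break. The sgWTAP_10 protospacer lies on the minus strand at chr6:160174569-160174588 in exon 7 of 8, with 532 coding bases (44.8%) ahead of the break. Neither guide had a second site with an NGG PAM at fewer than 3 mismatches in GRCh37. At 3 mismatches sgWTAP_1 had 1 site in an exon, that of DTX4, and 3 in introns, and sgWTAP_10 had 4 in introns. DTX4 mRNA averaged 1.23 CPM with sg1 and 1.64 CPM with sg2, a log2 difference of 0.29 that did not pass the test (limma, adjusted p = 0.634).

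WTAP mRNA itself (chromosome 6, 160146617 to 160177351, GRCh37) was present with both guides. It stood at 123 and 139.9 CPM in sg1 samples and 84.8 and 114 CPM in sg2 samples. Both sg2 samples were below both sg1 samples, yet the log2 difference of -0.41 ± 0.16 (SE) did not pass the threshold of an adjusted p of 0.05 (limma, adjusted p = 0.204; -0.38 and 0.222 after the GC correction described below). The difference was -0.19 without sg2 replicate 1 and -0.62 without sg2 replicate 2, and neither passed. A frameshift need not lower the mRNA, so these values do not measure how much WTAP protein each guide removed.

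The other subunits of the m6A writer gave no call. ZC3H13, which anchors the complex in the nucleus, was at 158 and 163 CPM in sg1 samples and 101 and 119.8 CPM in sg2 samples (log2 difference -0.54 ± 0.13, adjusted p = 0.0757; -0.39 after GC correction). RBM15 and RBM15B, the RNA-binding adaptors, were on the other side, with log2 differences of 0.58 ± 0.16 (adjusted p = 0.102) and 0.51 ± 0.13 (adjusted p = 0.0800), or 0.46 and 0.38 after correction. The differences of the catalytic subunit METTL3 and its partner METTL14 were 0.15 and -0.35, and those of CBLL1 and KIAA1429 (VIRMA) were -0.05 and -0.04. After correction METTL3 was at 0.04 and METTL14 at -0.05, and CBLL1 (0.26) and KIAA1429 (0.17) turned to the other side, each with both sg2 samples above both sg1 samples. Over the 8 writer genes 2 were above and 3 below as deposited (median -0.05), and 4 were above and 2 below after correction (median 0.10). Over all genes tested 29.9% were above and 23.1% below, and 28.4% and 23.2% after correction. These shares are the background of every list count below. Among 12 readers and erasers of the mark (median -0.03, and 0.07 after correction), 1 passed. YTHDF2, the cytoplasmic reader that sends m6A-marked mRNA to decay, was at 138 and 129 CPM in sg1 samples and 249.8 and 241 CPM in sg2 samples. It rose by 0.87 ± 0.12 on the log2 scale (adjusted p = 0.0238) and by 0.82 after the GC correction (adjusted p = 0.0328).

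The 4 libraries held 26.3 and 16.2 M reads with sg1 and 15.9 and 17.5 M with sg2, so 3 reads correspond to 0.114 to 0.189 CPM. This floor covers counting error only. Replicates of a guide correlated across genes at r = 0.985 for sg1 and 0.991 for sg2, and samples of different guides at 0.971 to 0.984, which describes genes and carries no p. Lane, run and preparation of the libraries are not in the labels, and a batch that divided the guides and the guides themselves cannot be told apart.

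The 4 samples also differed in how their values depended on the GC content of the transcript. Genes were placed in 10 bins of about equal number ordered by GC. In the bin of lowest GC (median 36.9%) the median log2 difference between sg2 and sg1 was -0.31, and in the bin of highest GC (median 64.1%) it was 0.16. Across 12513 genes with a GC value the Spearman correlation between the difference and GC was 0.461. The samples did not divide cleanly by guide. Deviations from the 4-sample mean correlated with GC at 0.539 in sg2 replicate 1 and at -0.481 in sg1 replicate 2, but at only 0.137 in sg2 replicate 2 and at -0.187 in sg1 replicate 1. Between replicates of sg2 the correlation with GC (-0.458, replicate 2 minus 1) was about as large as between the guides. The gene lists are therefore given as deposited and again after the smooth GC trend of each sample was removed. GC and the guide move together here, and the correction removes any part of the guide's own difference that follows GC.

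**Figure D1:**
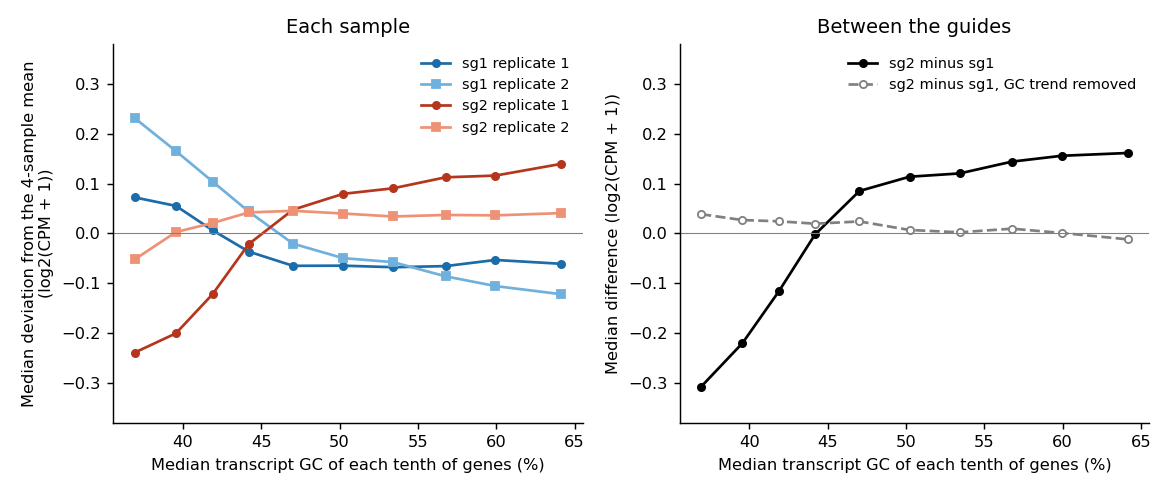
Left, median deviation of each sample from the 4-sample mean, in log2(CPM + 1), for bins of genes ordered by transcript GC, placed at the median GC of the bin in percent. Right, the median difference between sg2 and sg1 in the same bins as deposited (filled) and with the GC trend removed (open). sg2 replicate 1 and sg1 replicate 2 slope in opposite directions, and the difference between the guides runs from -0.31 to 0.16 before the correction and from -0.01 to 0.04 after it.

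As deposited, 226 of 12800 genes differed between the guides (limma on log2(CPM + 1), adjusted p under 0.05), 163 higher with sg2 (1.27% of genes tested) and 63 lower (0.492%). The genes that rose had a median GC of 56.7% and a median transcript length of 3132 bases, against 48.5% and 3502 bases for all genes tested. Those that fell had 38.2% and 6903 bases, and all 63 lay in the 4 bins of lowest GC, at or under 45.6%. No gene passed an adjusted p of 0.01, and 2821 had an unadjusted p under 0.05, 1625 of them higher with sg2 and 1196 lower. These counts of 12800 are the background of list counts at that level. With the GC trend removed 87 genes differed, 74 higher (0.591%) and 13 lower (0.104%). Of the 163 higher calls 69 (42.3%) were called in the corrected fit too, and of the 63 lower calls 12 (19.05%). All 226 genes kept both sg2 samples on the same side of both sg1 samples after correction. The counts moved with single libraries. Without sg1 replicate 1, sg1 replicate 2 or sg2 replicate 2 the uncorrected fit called 1212, 1328 and 647 genes. Without sg2 replicate 1, 56 genes were called as deposited and 0 with the GC trend removed (713 at an unadjusted p under 0.05), and without sg2 replicate 2 the corrected fit also called 0 (1247 at an unadjusted p under 0.05). There were 51 genes, 40 of them higher with sg2, that were called as deposited whichever of the 4 samples was left out.

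The largest rises were in genes of varied function. MMRN2, an extracellular matrix protein of blood vessel walls, was at 7.08 and 14.9 CPM in sg1 samples and 63.02 and 51.5 CPM in sg2 samples, a log2 difference of 2.36 ± 0.30 (adjusted p = 0.0238; 2.22 after GC correction). MAP1A, a microtubule-associated protein, was at 62.96 and 60.4 CPM in sg1 samples and 234 and 195 CPM in sg2 samples. Its difference of 1.77 ± 0.13 had the lowest adjusted p of all genes (0.0133, and 0.00900 after GC correction, where the difference was 1.65). LRRN2, a leucine-rich repeat membrane protein, was at 27.3 and 19.4 CPM in sg1 samples and 81.6 and 75.5 CPM in sg2 samples (difference 1.73 ± 0.18, adjusted p = 0.0238). SELPLG, the ligand of P-selectin on blood cells, was at 65.7 and 57.8 CPM in sg1 samples and 201 and 174 CPM in sg2 samples (difference 1.59 ± 0.14, adjusted p = 0.0157). No sample of one guide overlapped with the other guide in these genes, which was a condition for being picked among the largest rises and falls.

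Several of the other large rises were in genes that were scarce with sg1. TUBB1, the platelet beta tubulin, was at 6.09 and 2.35 CPM in sg1 samples and 19.5 and 15.3 CPM in sg2 samples (log2 difference 1.90 ± 0.34, adjusted p = 0.0434; adjusted p = 0.0633 after GC correction). VTN, which encodes the adhesive plasma protein vitronectin, was at 4.19 and 1.79 CPM in sg1 samples and 16.8 and 13.1 CPM in sg2 samples. HK3, a hexokinase found mainly in white blood cells, had 7 and 13 reads with sg1 and 101 and 103 with sg2. TMEM119 had 3 and 1 reads with sg1, at the floor of 3 reads, against 58 and 57 with sg2, so no fold is given. SERPIND1, the heparin cofactor II gene, had 2 and 8 reads with sg1 and 69 and 70 with sg2. All 3 were called with and without the GC correction (adjusted p = 0.0238 for each as deposited), but they reached a mean of 1 CPM only through the sg2 samples where they were high, so their calls support nothing beyond these values. NHSL2 (2.40 and 2.47 against 11.97 and 9.03 CPM) and ZBTB7C, a zinc finger factor (1.14 and 1.36 against 6.62 and 6.40 CPM), were the remaining members of the 10 largest rises. STXBP5-AS1, an antisense noncoding RNA, and the protease gene PRSS23 joined the 10 largest among genes called in the corrected fit, where their differences were 1.93 and 1.71. The study's kit kept strand but its counting setting was not stated, so reads of STXBP5-AS1 and its partner gene may not be separable.

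The largest falls included 2 motors of the mitotic spindle. KIF14, a kinesin of the midzone and of cytokinesis, was at 44.9 and 52.4 CPM in sg1 samples and 12.2 and 14.7 CPM in sg2 samples, a difference of -1.78 ± 0.17 (adjusted p = 0.0222; -1.48 and 0.0271 after GC correction). KIF11, the motor that separates the spindle poles, was at 155 and 234 CPM in sg1 samples and 61.1 and 91.5 CPM in sg2 samples (difference -1.34 ± 0.24, adjusted p = 0.0413). After correction KIF11 was at -1.08 and missed the threshold (adjusted p = 0.0598). ROCK2, a kinase that drives actomyosin contraction, was at 75.8 and 96.6 CPM in sg1 samples and 32.3 and 39.4 CPM in sg2 samples. It fell by 1.24 on the log2 scale (adjusted p = 0.0247) and by 1.01 after correction (adjusted p = 0.0349).

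The other large falls were in genes of varied function. MBNL3, a splicing regulator, was at 46.1 and 48.7 CPM in sg1 samples and 16.3 and 21.4 CPM in sg2 samples (difference -1.30 ± 0.17, adjusted p = 0.0238), and it was called again after correction (adjusted p = 0.0394). The lipid kinase gene PIK3C2A (-1.35), the NF-kappaB subunit gene REL (-1.21), the zinc finger gene ZNF525 (-1.43), the axonemal dynein gene DNAH8 (-1.30) and the noncoding RNAs UGDH-AS1 (-1.32) and LINC00342 (-1.21) were called as deposited and missed the threshold after correction, with adjusted p from 0.0554 for REL to 0.106 for PIK3C2A. Among genes called in the corrected fit the 10 largest falls also held KCNQ1OT1, the imprinted nuclear noncoding RNA (-1.08), ZNF33A (-0.91), the splicing-speckle protein gene NSRP1 (-0.86), the 5′ exonuclease gene XRN1 (-0.85), the centriolar gene CNTRL (-0.80), ATAD5, which unloads PCNA from DNA (-0.78), and the mitochondrial fission gene DNM1L (-0.76). XRN1 was at 85.2 and 91.1 CPM in sg1 samples and 32.5 and 45.03 CPM in sg2 samples. ATAD5 was at 61.1 and 68.8 CPM in sg1 samples and 28.5 and 30.6 CPM in sg2 samples. In both genes the samples of the guides did not overlap, which in the corrected fit was a condition of being listed here.

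**Figure D2:**
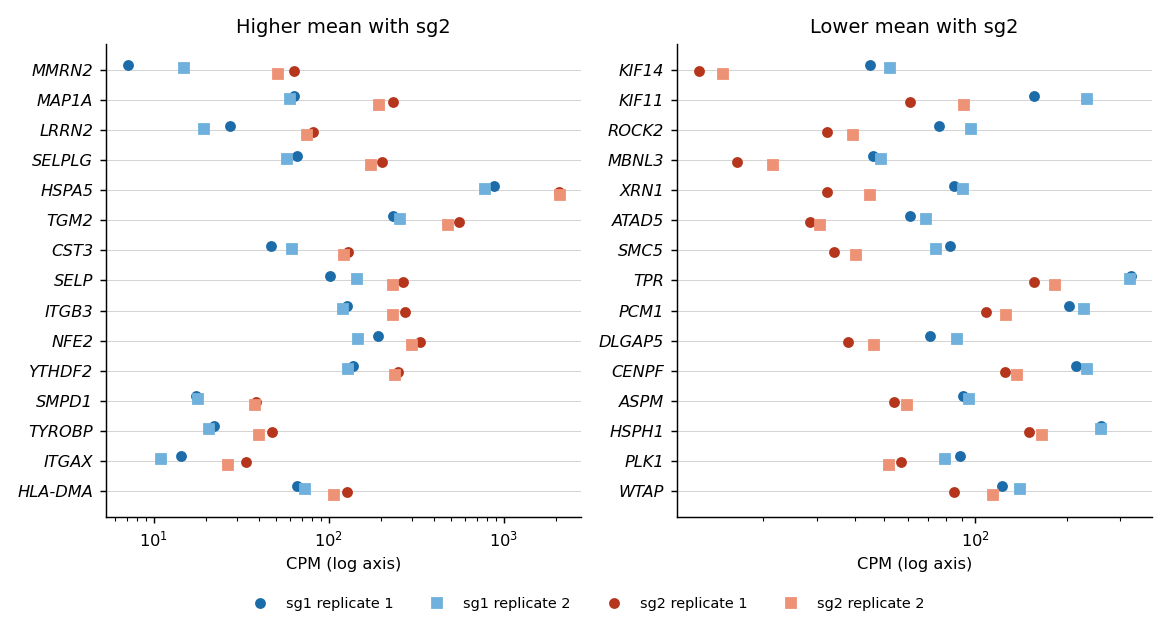
CPM on a log axis in each of the 4 samples (colors for guides, circles for replicate 1, squares for replicate 2) for genes named in the text. The sg1 and sg2 samples do not overlap in any gene shown, which was a condition for picking the largest rises and falls. WTAP did not pass the threshold, and PLK1 passed it only with the GC trend removed.

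Genes of mitosis were lower with sg2 as a group. Of 26 mitotic regulators (cyclins, kinases and spindle proteins), 23 had both sg2 samples below both sg1 samples and none the reverse, where 23.1% of all genes tested lay below and 29.9% above. The median log2 difference was -0.47, against 0.03 over all genes. After GC correction 24 of 26 were below (all genes 23.2%) and the median was -0.43. Since this is bulk RNA, fewer cells in mitosis and less RNA per cell cannot be told apart.

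Few of these members passed the test singly. DLGAP5, a spindle assembly protein, was at 70.7 and 86.7 CPM in sg1 samples and 37.9 and 46.2 CPM in sg2 samples and fell by 0.89 on the log2 scale (adjusted p = 0.0463). ASPM, which focuses spindle poles, fell by 0.71 (adjusted p = 0.0434), and both missed the threshold after correction. PLK1, the polo-like kinase that drives mitotic entry, was at 88.9 and 79.1 CPM in sg1 samples and 56.7 and 51.8 CPM in sg2 samples. It has a GC-rich transcript (57.1%) and went the other way with the correction, from a difference of -0.62 (adjusted p = 0.0598) to a fall of 0.76 on the log2 scale (adjusted p = 0.0394). CDC20, the activator of the anaphase-promoting complex, has a similar GC of 57.9% and moved from -0.48 (adjusted p = 0.0739) to -0.62 (adjusted p = 0.0506). The proliferation marker MKI67 was at 657 and 908 CPM in sg1 samples and 336 and 535 CPM in sg2 samples, with a difference of -0.86 ± 0.24 that did not pass (adjusted p = 0.100). TOP2A, the topoisomerase that disentangles chromosomes, was at 881 and 1108 CPM in sg1 samples and 547 and 629 CPM in sg2 samples (difference -0.75 ± 0.15, adjusted p = 0.0561).

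The size of the mitotic difference depended on which samples were set against each other. The mean level of the list was 6.91 and 7.11 on the log2(CPM + 1) scale in the sg1 samples and 6.42 and 6.61 in the sg2 samples. Leaving out each sample in turn moved the median between -0.56 and -0.38, and between -0.53 and -0.36 after GC correction. Between sg2 replicate 2 and sg1 replicate 1, the pair with the smallest GC trend between guides, the median was -0.28.

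Lists of chromosome structure, centrosome and repair lay on the same side, with a larger part following GC. For the SMC complexes (cohesin, condensin, SMC5/6 and their loaders), which hold and fold chromatids, 16 of 22 members were below with sg2 and 13 after correction, and the median went from -0.48 to -0.25. SMC5, at 82.5 and 74.2 CPM in sg1 samples and 34.2 and 40.2 CPM in sg2 samples, was the 1 member called (difference -1.06 ± 0.15, adjusted p = 0.0249), and after correction it was at -0.71 (adjusted p = 0.0642). NCAPG, a condensin subunit, was at -0.98 (adjusted p = 0.0739) and -0.70 (adjusted p = 0.134). Of 43 centrosome genes 29 were below and 2 above, with a median of -0.43 that went to -0.24. CEP135 (-1.17), PCM1 (-0.87) and CEP152 (-0.78) fell, and none of the 3 passed after correction. Transcripts of both lists were long and poor in GC, with median GC of 39.8% and 41.5% and median lengths of 5736 and 5596 bases.

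For 26 genes of homologous recombination and the Fanconi pathway, which repair double-strand breaks and crosslinks, 19 were below and 1 above (12 and 1 after correction). The median was -0.40, then -0.29 after correction, and -0.22 as deposited without sg2 replicate 1, and 0 members were called in either fit (12 had an unadjusted p under 0.05). BRIP1, a helicase of this pathway, was at 71.4 and 104 CPM in sg1 samples and 33.3 and 51.3 CPM in sg2 samples (difference -1.04 ± 0.24, adjusted p = 0.0682). Of 41 kinetochore and spindle checkpoint genes 23 were below and 0 above (18 and 2 after correction). Their median was -0.29, then -0.21 after correction, and as deposited it was -0.47 without sg1 replicate 1 and -0.15 without sg1 replicate 2. CENPF (-0.77) and CENPE (-0.67), large proteins of the outer kinetochore, fell, with adjusted p = 0.0351 and 0.0487, and neither passed after correction (0.0564 and 0.295). Of 45 DNA replication genes 21 were below and 2 above with a median of -0.20 and no call (12 had an unadjusted p under 0.05), and after correction 20 were below and 0 above with a median of -0.22. The uncorrected replication median was -0.35 without sg1 replicate 1, -0.08 without sg1 replicate 2 and -0.12 without sg2 replicate 1. For the pair with the smallest GC trend the medians of the repair, kinetochore and replication lists were -0.13, -0.04 and 0.02, where that of all genes was 0.05.

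RNA-binding and protein-folding lists also lay toward lower values. Of 32 SR and hnRNP splicing regulators 23 were below and 1 above (median -0.33, and -0.26 after correction), and 0 passed (17 lower and 1 higher had an unadjusted p under 0.05). SRSF3, an SR protein of splicing and export, was at 467 and 347 CPM in sg1 samples and 251 and 255 CPM in sg2 samples (difference -0.67 ± 0.16, adjusted p = 0.0699). HNRNPH1 was at 368 and 287 CPM in sg1 samples and 198 and 223 CPM in sg2 samples (difference -0.63 ± 0.15, adjusted p = 0.0746). HNRNPA2B1, one of the 2 most abundant members, was at -0.51 and at -0.31 after correction. HNRNPU, the other, was at -0.34 and at 0.00 after correction, where its samples overlapped. Of 41 proteasome genes 25 were below and 0 above, with medians of -0.20 before and after the correction, and 0 were called (3 had an unadjusted p under 0.05). These 3 of 41 were under the share of all genes tested that were lower at that level (1196 of 12800).

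Among 46 chaperones 23 were below, 5 above and the median was -0.21 (22, 7 and -0.17 after correction), but 1 member stood out in the opposite direction. HSPA5 (BiP), the HSP70 of the endoplasmic reticulum, was at 885 and 780.4 CPM in sg1 samples and 2063 and 2095 CPM in sg2 samples. It rose by 1.32 ± 0.14 on the log2 scale (adjusted p = 0.0238; 1.28 and 0.0271 after correction) and was called without each of the 4 samples in the uncorrected fit. HSPH1, a cytosolic nucleotide exchange factor for HSP70, was at 259.5 CPM in each sg1 sample and at 150.0 and 166 CPM in sg2 samples, and it fell by 0.72 on the log2 scale (adjusted p = 0.0382; -0.47 and 0.0894 after correction). Members of the nuclear pore, kinesin, vesicle sorting and zinc finger lists were called singly. TPR, a nuclear pore basket protein, was at 325 and 322 CPM in sg1 samples and 156 and 183 CPM in sg2 samples and fell in both fits (-0.93 and -0.70). KIF5B, the motor of conventional kinesin (-0.67), the membrane-contact gene VPS13C (-0.87) and ZNF721 (-1.17) were called lower as deposited only. After correction they were at -0.40, -0.53 and -0.86 and missed the threshold. VPS18, of the endosomal HOPS complex, and the zinc finger gene ZNF467 were called higher as deposited only (0.90 and 1.13). After correction they were at 0.75 and 0.94 and missed the threshold.

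Megakaryocyte and platelet genes were higher with sg2. Of 22 genes on the list 17 were tested, 13 of them had both sg2 samples above both sg1 samples and 0 below, and the median log2 difference was 0.40, or 0.51 with the GC trend removed (12 above, 28.4% of all genes). Leaving out each sample in turn moved the uncorrected median between 0.36 and 0.68, and the corrected one between 0.37 and 0.605. For the pair with the smallest GC trend the uncorrected median was 0.65. As deposited 4 passed the test, and after correction ITGB3 alone. SELP, the P-selectin of platelet granules, was at 102 and 145 CPM in sg1 samples and 267 and 234 CPM in sg2 samples (difference 1.03 ± 0.18, adjusted p = 0.0400; 0.93 and 0.0606 after correction). ITGB3, the beta chain of the fibrinogen receptor, was at 127 and 120.3 CPM in sg1 samples and 273 and 232 CPM in sg2 samples, and it rose by 1.02 ± 0.13 (adjusted p = 0.0238) and by 0.92 after correction (adjusted p = 0.0309). GP1BA, part of the receptor for von Willebrand factor, rose by 0.63 (adjusted p = 0.0483; 0.51 and 0.0886 after correction), and TUBB1 was the fourth. FLI1, an ETS factor of megakaryocyte genes that was not on the list, was at 573 and 484 CPM in sg1 samples and 863 and 763 CPM in sg2 samples (difference 0.62 ± 0.14, adjusted p = 0.0647). The summed CPM of the list was 4589 and 4274 with sg1 and 5809.9 and 5243 with sg2. F13A1 had at most 0.19 CPM in a sample, and GP1BB was listed at 0.

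Myeloid genes and integrins followed. Of 13 myeloid granule and receptor genes tested, 10 were above and 0 below, with a median of 0.59, then 0.43 after correction with 8 above and 0 below. As deposited 3 were called, and after correction 1. TYROBP, the adaptor of myeloid activating receptors, was at 22.1 and 20.7 CPM in sg1 samples and 47.4 and 39.8 CPM in sg2 samples (difference 0.99 ± 0.16, adjusted p = 0.0373; 0.84 and 0.0498 after correction). The integrin chains ITGAX (CD11c) and ITGAM (CD11b) rose by 1.18 each (adjusted p = 0.0404 and 0.0487), from 14.4 and 11.1 CPM to 33.5 and 26.5 CPM for ITGAX. Neither passed after correction (ITGAX adjusted p = 0.0548 and ITGAM 0.0712). LYZ, the lysozyme gene, was at 0.61 (adjusted p = 0.0921) and 0.77 after correction (adjusted p = 0.0659). The granule genes MPO, ELANE, PRTN3 and AZU1 and the monocyte marker CD14 had at most 0.063 CPM in any sample, so the defining genes of granulocytes were at or near 0. Its summed CPM was 971 and 894 with sg1 and 1152 and 1076 with sg2. Of 10 T and B cell markers 5 were tested, with 2 above and 0 below, a summed CPM of 43.7 and 55.4 in sg1 samples and 85.3 and 74.6 in sg2 samples, and MS4A1 (CD20) listed at 0, and the part of such cells in the result was not tested. Of 21 integrin chains 11 were above and 4 below (median 0.29, and 0.30 after correction), and the 3 called were ITGB3, ITGAX and ITGAM, of which ITGB3 passed after correction.

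Lysosomal genes moved widely but by small amounts. Of 37 lysosomal hydrolases and membrane proteins tested, 26 were above and 2 below, with a median of 0.40, then 0.33 after correction with 26 above and 0 below. Left out singly, no sample took the uncorrected median outside 0.40 to 0.45 or the corrected one outside 0.27 to 0.35. As deposited, the pair with the smallest GC trend gave 0.38. SMPD1, the acid sphingomyelinase, was at 17.5 and 17.96 CPM in sg1 samples and 38.3 and 38.1 CPM in sg2 samples and rose by 1.06 ± 0.15 (adjusted p = 0.0269; 0.91 and 0.0455 after correction). CTSZ, a cathepsin, was at 105 and 109 CPM in sg1 samples and 169 and 168 CPM in sg2 samples (difference 0.65 ± 0.12, adjusted p = 0.0413; 0.57 and 0.0606 after correction). CTSL, another cathepsin, was at 1.15 ± 0.25 and did not pass (adjusted p = 0.0593). SMPD1 and CTSZ were the members called, and of all 37 members 20 had an unadjusted p under 0.05 toward higher values.

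Antigen presentation and interferon lists lay on the higher side too. Of 10 MHC class II genes 8 were above and 0 below (median 0.37, and 0.29 after correction). HLA-DMA, which loads peptides onto class II molecules, was the 1 called, at 65.9 and 73.03 CPM in sg1 samples and 127 and 107 CPM in sg2 samples (difference 0.74 ± 0.14, adjusted p = 0.0479; 0.62 and 0.0686 after correction). Of 17 MHC class I presentation genes 12 were above and 0 below with a median of 0.24 (10, 1 and 0.14 after correction). Of 37 interferon-induced antiviral genes 15 were above and 1 below with a median of 0.19, then 0.22 after correction. That was 40.5% above, and 48.6% after correction, where 29.9% and 28.4% of all genes were above. Leaving out each sample in turn moved the uncorrected interferon median between 0.15 and 0.34. Neither the class I nor the interferon list had a call. An unadjusted p under 0.05 was reached by 4 of 17 class I and 8 of 37 interferon members. Over all genes tested it was 2821 of 12800, a similar share. In the BCL2 family 1 of 13 passed. BCL2A1, an antiapoptotic member, was at 3.999 and 3.70 CPM in sg1 samples and 10.96 and 10.001 CPM in sg2 samples and rose by 1.24 (adjusted p = 0.0375), and by 1.43 after correction.

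**Figure D3:**
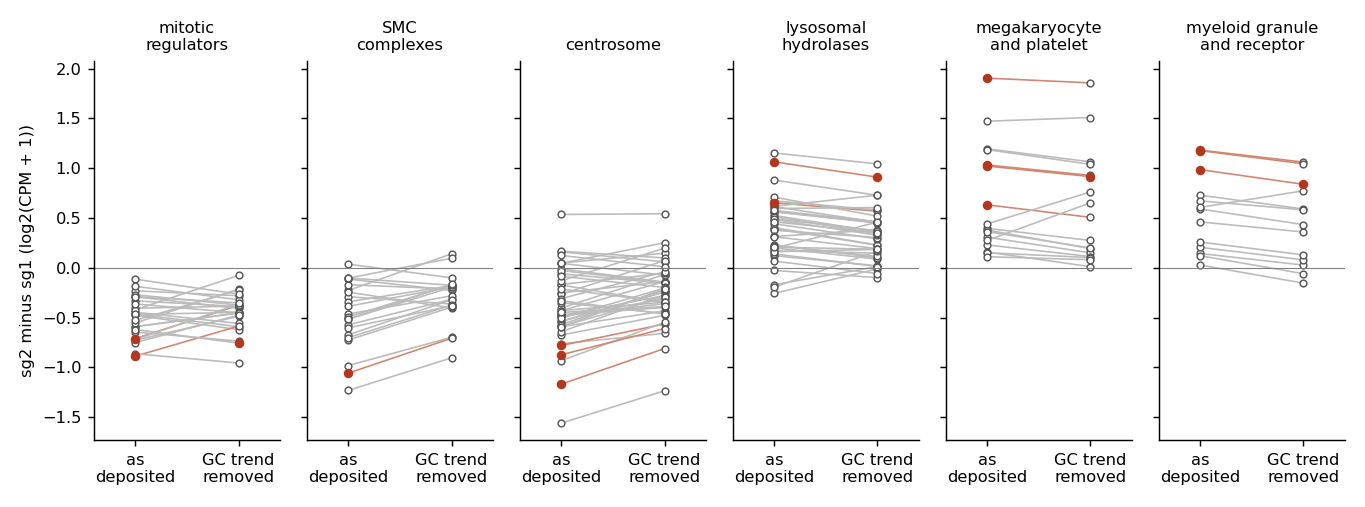
Log2 differences between sg2 and sg1 for the tested members of 6 gene lists, as deposited (left of each panel) and with the GC trend removed (right). Each line is a gene, and filled red points passed an adjusted p of 0.05 in that fit. The SMC and centrosome medians moved toward 0 with the correction. In the corrected fit 13 of 22 SMC and 24 of 43 centrosome members still had both sg2 samples below both sg1 samples. Mitotic, lysosomal, megakaryocyte and myeloid members also stayed mostly on their side.

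In the erythroid factor, heme, globin and red cell membrane lists only NFE2 was called, and the lists differed in direction. Of 8 erythroid transcription factors 5 were above and 0 below (median 0.33, and 0.20 after correction with 4 above and 1 below). NFE2, which drives globin and platelet genes, was at 190.3 and 148 CPM in sg1 samples and 335 and 301 CPM in sg2 samples and rose by 0.92 ± 0.15 (adjusted p = 0.0375; 0.79 and 0.0498 after correction). ZFPM1 (FOG1), the partner of GATA1, was at 0.61 ± 0.14 (adjusted p = 0.0705), KLF1 at 0.62 ± 0.30 (adjusted p = 0.268), LMO2 at 0.34 and LDB1 at 0.32. GATA1 was at 232 and 228 CPM in sg1 samples and 247 and 222 CPM in sg2 samples, so its samples overlapped (difference 0.03 ± 0.12). After correction GATA1 was at -0.13 with both sg2 samples below both sg1 samples and did not pass (adjusted p = 0.518). GFI1B overlapped in both fits (0.20 ± 0.17, and 0.07 after correction). For the pair with the smallest GC trend the median of the list was 0.07, and without sg1 replicate 2 it was 0.16.

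Heme enzymes gave no call. Of 7 tested, 2 were below with sg2 and 0 above, and the median difference was -0.09. That was 28.6% below, near the 23.1% of all genes. After correction 3 were below and 0 above with a median of -0.20. Leaving out each sample in turn moved the uncorrected median between -0.25 and -0.06. In the order of the pathway, ALAD was at 0.18, UROS at -0.18, UROD at -0.25, CPOX at -0.04, PPOX at -0.18 and FECH at 0.03, with adjusted p from 0.279 upward. ALAS2, the erythroid first enzyme, was below 1 CPM in each sample. Of 18 red cell membrane genes tested 7 were below and 1 above with a median of -0.11, then 7 and 0 with -0.08 after correction. Of these genes 0 were called, and 4 had an unadjusted p under 0.05 toward lower values (limma). TFRC, the transferrin receptor and a member of that list, was at 487 and 624 CPM in sg1 samples and 341 and 449 CPM in sg2 samples (difference -0.49 ± 0.18, adjusted p = 0.163). Of 7 globin genes tested 0 were called (median -0.08, and -0.21 after correction), with an uncorrected median of 0.29 without sg1 replicate 1 and -0.48 without sg1 replicate 2, and 4 others of that list stayed under a mean of 1 CPM.

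The study's 6 lists of genes that rise or fall between erythroid progenitor stages were counted in the same way. They were taken from the study's supplement, with the stages as named there. Over all genes 29.9% were above and 23.1% below, and 1.27% were called higher and 0.492% lower. Genes that fall from CFU-E to proerythroblast were the most displaced, with 90 of 170 above and 14 below (median 0.24, and 0.16 after correction). As deposited 9 of them rose and 0 fell, and after correction 3 rose. CST3, the cystatin C gene, was at 46.5 and 61.8 CPM in sg1 samples and 129 and 123 CPM in sg2 samples (difference 1.22 ± 0.16, adjusted p = 0.0238), and SERPINB1, an inhibitor of neutrophil proteases, rose by 0.95 (adjusted p = 0.0287). Genes that fall from BFU-E to CFU-E had 168 of 402 above and 40 below (median 0.16, and 0.08), with 13 rises and 0 falls, and 7 rises after correction. NDRG1 rose by 1.12 and missed the threshold after correction (adjusted p = 0.0720). The list that falls from CD34+ cells to BFU-E had a median of 0.10, then 0.06, with BCL2A1 and the macrophage marker CD68 (0.89) as its rises, and CD68 missed the threshold after correction (adjusted p = 0.0608). As deposited these 2 of 370 members (0.541%) were under the share of all genes called higher. The 3 lists of rising genes had medians of -0.04 (CD34+ to BFU-E), -0.07 (BFU-E to CFU-E) and 0.02 (CFU-E to proerythroblast), or -0.05, 0.01 and -0.11 after correction. In the first of them 8 of 319 genes were called higher and 3 lower, then 5 and 1 after correction. In the third, 0 of 106 were called higher and 3 lower, then 0 and 1 after correction. TGM2, the tissue transglutaminase, was the 1 call of the second list. It was at 233 and 256 CPM in sg1 samples and 556 and 482 CPM in sg2 samples (difference 1.08 ± 0.13, adjusted p = 0.0238).

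**Figure D4:**
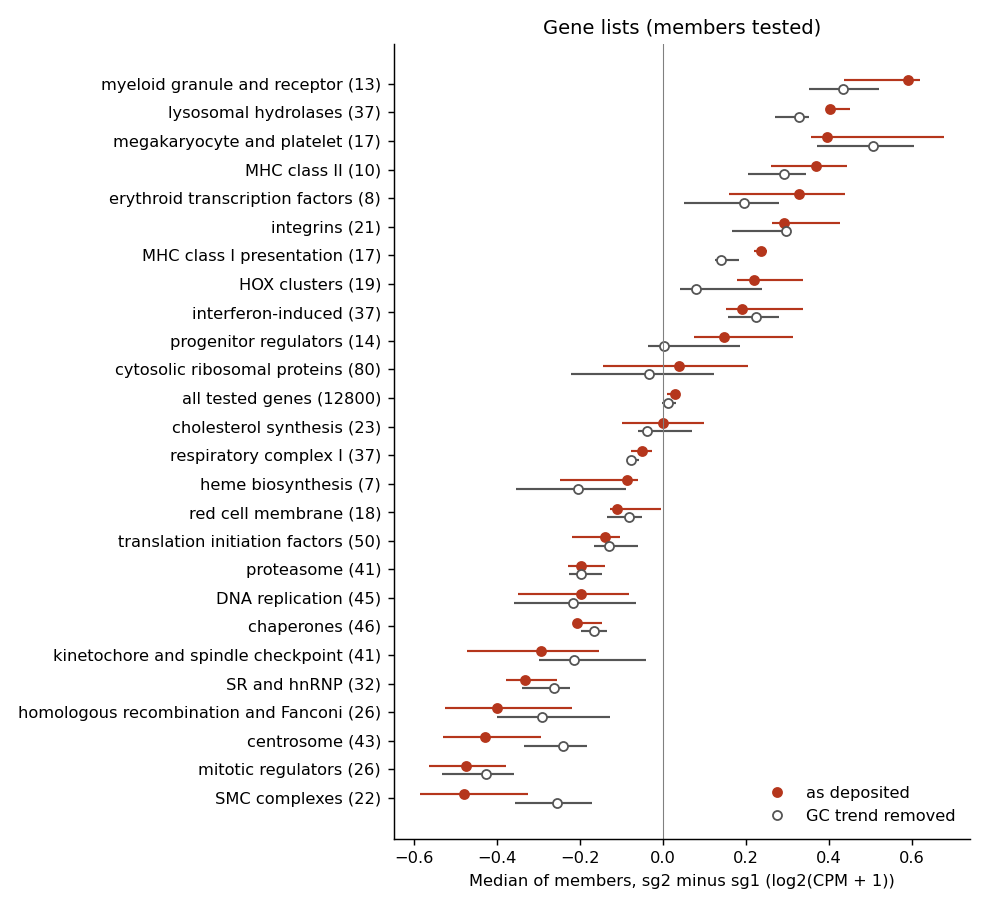
Median log2 difference between sg2 and sg1 over the tested members of selected gene lists and over all genes (number of members in parentheses), as deposited (red) and with the GC trend removed (grey, open). Horizontal lines give the lowest and highest median when each sample was left out in turn. As deposited, among the lists shown, mitotic, SMC and centrosome lists lie lowest and myeloid, lysosomal and megakaryocyte lists highest. Lists left out of the figure include 6 nuclear retained noncoding RNAs (median -0.48, and -0.37 after correction). They also include 6 stromal, epithelial and endothelial markers (0.54, and 0.49 after correction). Ribosomal proteins, cholesterol synthesis and complex I lie near the median of all genes.

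Housekeeping groups were mixed. Of 80 cytosolic ribosomal protein genes 4 were above and 0 below, with a median of 0.04 and 0 members at an unadjusted p under 0.05, and after correction 4 were above and 8 below with a median of -0.03. That median lay between opposite shifts, at 0.20 without sg1 replicate 1 and -0.14 without sg1 replicate 2. For 37 complex I genes the median was -0.05 and for 23 cholesterol synthesis genes 0.00 (-0.08 and -0.04 after correction), with 0 called in each. After correction 16 complex I genes were below and 5 above. Other groups lay lower, with 26 of 50 translation initiation factors below and 3 above (median -0.14, and -0.13 after correction). Of 21 glycolysis genes 9 were below and 5 above (median -0.08, and -0.14 after correction). Removing the GC trend made the medians of some lists smaller, while their counts above changed little. Progenitor regulators went from 0.15 to 0.00, with 5 of 14 above in both fits. HOX cluster genes went from 0.22 to 0.08, with 8 of 19 above and then 7. The correction also brought 6 genes past the threshold that had not been there. TRIM38 (0.93), NCK1 (0.84), CTSC (0.77), TBPL1 (0.75) and ATP8B4 (0.70) were higher with sg2 in the corrected fit, and PLK1 was lower.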

How the data were processed

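RNA-seq of 4 HEL samples with WTAP guides was analysed. Per the study's methods, reads of a stranded library were aligned to hg19 with TopHat2 and counted against UCSC genes with HTSeq, versions and CPM program not given in the sources used here. The labels and the methods name different RNA extraction kits. The authors deposited 1 CPM value per gene symbol and sample. All values (100%, tolerance 0.02) were whole multiples of 1 read, so whole reads were recovered, and edgeR on them called 86 genes. Replicates differed by more than sampling noise (chi-square per degree of freedom 33.5 for sg1 and 12.4 for sg2).

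The main test was limma (3.58.1, R 4.3.3) with a mean-variance trend on log2(CPM + 1), which understates changes of low genes, for genes with a mean of at least 1 CPM, with Benjamini-Hochberg adjustment at 0.05. A second fit used values from which the loess trend (span 0.5) of each sample on transcript GC (longest protein-coding transcript, GENCODE lifted to GRCh37) had been removed. GC was found for 97.8% of genes tested. Of the symbols listed 21539 matched current and 1487 older names, and 2344 did not match. Alternatives included edgeR (4.0.16) and DESeq2 (1.42.0). Differences are sg2 minus sg1 with the SE of the fit. Counts above and below mean that both sg2 samples lay beyond both sg1 samples. An exact permutation test of 2 against 2 cannot go below p = 0.333 (two-sided) and was not used.

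Genes were named as follows. All m6A writer genes, erythroid factors and heme enzymes, the 10 largest rises and falls of each fit, and up to 4 called members of a list or else its 2 most abundant were eligible. The largest rises and falls were taken only from called genes in which the samples of the guides did not overlap. MKI67, TOP2A, CDC20, NCAPG, BRIP1, SRSF3, HNRNPH1, CTSL, LYZ, FLI1, ATP8B4, CTSC, TBPL1 and TRIM38 were added after their values were seen, as were those of the closing observations. The members and the 64 lists were chosen with earlier results of these data known, so no list was tested. The results of some genes are not reported here, and these genes remain in all counts. The fits were tested on simulated data of 12513 genes. With no GC trend, limma made 15 false calls with or without the correction. With a GC trend added to both sg2 samples, the uncorrected limma fit made 1522 false calls and the corrected fit 8. That simulated trend followed the guide exactly and the dispersion was fixed, which these samples do not share. Non-targeting samples were not used here.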

Additional observations from a re-analysis of the deposited data

How the results depend on the processing

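As deposited the count of genes that differed was 226. It stayed within 1.5 times of this with a pseudocount of 0.5, a mean of at least 5 CPM and quantile normalization. It was 137 after median-of-ratios rescaling, 116 with reads thinned to equal depth, 86 with edgeR, 795 with DESeq2 (398 higher and 397 lower), 101 with an absolute log2 difference of at least 1 as well, and 0 with no filter, with no mean-variance trend or at an adjusted p of 0.01 (3088, 2619 and 2821 genes had an unadjusted p under 0.05). With the GC trend removed the count was 87. It was 50 with edgeR and the GC trend as an offset (added after seeing the data) and 1 at an adjusted p of 0.01, and it stayed within 1.5 times with a span of 0.3, transcript length added, the median transcript's GC and the higher CPM filter. Leaving out each sample in turn gave 56 to 1328 genes as deposited and 0 to 1659 with the GC trend removed. The lone sample is assumed to vary like the other guide's. The cause was not tested.

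The replicate block gave 2515 genes as deposited and 1473 with the GC correction. WTAP mRNA, at -0.41, passed with the replicate block (adjusted p = 0.0151), and at -0.38 with the block and the GC correction (adjusted p = 0.0284). Leaving out each sample gave -0.62 to -0.19 for WTAP. Same-numbered samples deviated together across genes (r = 0.327), but the labels do not say that a number marks a shared batch, so the block was not the main fit.

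Among genes that were not called, the GC correction turned GATA1, CBLL1, KIAA1429 and HNRNPU (-0.13, 0.26, 0.17 and 0.002), and these changed sign under other settings. GATA1 was -0.0067 after median-of-ratios rescaling, -0.000097 with edgeR and -0.0050 with DESeq2, and FECH was -0.0061, -0.0036 and -0.0088. Leaving out each sample in turn gave -0.051 to 0.103 for GATA1, -0.0998 to 0.152 for FECH, -0.286 to 0.212 for CPOX, -0.449 to 0.083 for UROS, -0.0202 to 0.314 for METTL3, -0.0127 to 0.408 for GFI1B, -0.135 to 0.0284 for CBLL1 and -0.266 to 0.179 for KIAA1429. No called gene named here changed sign under any alternative run.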

Other observations

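Beyond MMRN2, other genes of the blood vessel lining were higher with sg2, and these were singled out after their values were seen. ICAM2, an endothelial adhesion molecule, was at 61.6 and 65.3 CPM in sg1 samples and 137 and 120.4 CPM in sg2 samples and rose by 1.00 ± 0.13 on the log2 scale (limma, adjusted p = 0.0238; 0.87 and 0.0341 with the GC trend removed). PLVAP, of endothelial diaphragms, rose by 1.11 (adjusted p = 0.0243; 0.96 and 0.0390), PROCR, the protein C receptor, by 0.88 (adjusted p = 0.0322; 0.77 and 0.0394), and ENG, the endoglin coreceptor, by 0.80 (adjusted p = 0.0382; 0.64 and 0.0577). KDR, the main VEGF receptor, was at 323 and 470.2 CPM in sg1 samples and 595 and 569 CPM in sg2 samples and did not pass (difference 0.58 ± 0.18, adjusted p = 0.125), nor did PECAM1 at 0.71, CDH5 at 0.70 or TEK at 0.50. The list of markers of stromal, epithelial and endothelial cells summed to 406 and 584 CPM with sg1 and to 747 and 706 CPM with sg2, and its COL1A2, COL3A1, LUM and KRT19 were at 0 in all 4 samples.

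Beside HSPA5, 4 other genes of protein folding in the endoplasmic reticulum were looked at. SDF2L1 was at 0.66 (adjusted p = 0.124), PDIA4 at 0.57 (adjusted p = 0.0694), CALR at 0.29 (adjusted p = 0.365) and HSP90B1 at -0.22 (adjusted p = 0.473), and none of the 4 passed.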
